A study of Mus musculus with 18 samples.

Results

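The genes described here are 9 genes of MHC class I antigen presentation, measured by RNA-seq in FACS-purified Foxp3+ regulatory T cells (Tregs) of 18 mice in 4 groups. They were chosen by name, as the rows of the count table whose Ensembl identifier maps to *H2-K1*, *H2-D1*, *B2m*, *Tap1*, *Tap2*, *Tapbp*, *Nlrc5*, *H2-T23* and *H2-Q7*, and all 9 were found among its 50600 genes. Thymic Tregs came from 5 CD25 KO mice, which carried a floxed *Il2ra* (the gene of CD25, the IL-2 receptor α chain) and a YFP/Cre allele of *Foxp3*, and from 5 Foxp3/RFP reporter mice (WT), all 3–4 weeks old. The thymic CD25 KO mice were "cured" of autoimmunity by WT splenocytes given intravenously to the newborn, so these hosts also held donor Tregs. Splenic Tregs came from 4 mice with floxed *Il2ra*, *Foxp3* eGFP-Cre-ERT2 and the R26Y reporter (CD25 KO) and from 4 reporter controls (WT), given tamoxifen at 7–10 weeks of age and collected 10–14 days later. All mice were labelled C57BL/6, the Cre of both models is driven by *Foxp3*, and each sample is an individual mouse. In the thymus the 2 genotypes carried different *Foxp3* reporter alleles. Splenic and thymic samples also differed in mouse model, tamoxifen and age, and in the date given in the column headers of their counts.

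MHC class I molecules display peptides from inside the cell to CD8+ T cells and NK cells. Peptides are cut by the proteasome, pumped into the endoplasmic reticulum by the transporter TAP, and loaded with the help of tapasin onto a heavy chain paired with β2-microglobulin. In lymphocytes the heavy chain genes are switched on largely by NLRC5, a protein that does not bind DNA itself but joins RFX, CREB/ATF and NF-Y factors on a set of spaced promoter boxes, and interferons raise the whole pathway, in part through IRF1. *H2-K1* and *H2-D1* encode the classical heavy chains, *H2-T23* (Qa-1) and *H2-Q7* (Qa-2) encode non-classical ones, *B2m* encodes the light chain, *Tap1* and *Tap2* encode the TAP subunits, and *Tapbp* encodes tapasin.

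Of the 9 genes, 7 lie on chromosome 17, in or beside the MHC (coordinates are GRCm38). The heavy chain genes are *H2-K1* (chr17:33996017-34000347, minus strand), *H2-D1* (chr17:35262730-35267499, plus strand), *H2-Q7* (chr17:35439155-35443773, plus strand) and *H2-T23* (chr17:36029773-36032855, minus strand). The loading genes are *Tapbp* (chr17:33915899-33929292), *Tap1* (chr17:34187553-34197225) and *Tap2* (chr17:34203527-34216321), all on the plus strand. *B2m* lies at chr2:122147686-122153083 and *Nlrc5* at chr8:94434356-94527272, both on the plus strand.

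Promoter sequences are shown because NLRC5 acts through spaced boxes in class I promoters, while the levels of class I genes differed between tissues as described further on. RefSeq promoters (GRCm38.p6) were found for 7 of the 9 genes, all but *Tap2* and *Nlrc5*. Capitals mark the letters TGACG (core of the X2 box, a CREB/ATF site) and ATTGG (the Y box, an NF-Y site, read in reverse as CCAAT), with 19 or 20 bases between them, 5′ to 3′ on the strand of the gene.
*H2-K1*, chr17:34000359-34000388: TGACGcgcagtcagctcttacccccATTGG
*H2-D1*, chr17:35262993-35263022: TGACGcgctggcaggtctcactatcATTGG
*H2-Q7*, chr17:35439091-35439119: TGACGtgtaacagttctcacccctATTGG
*B2m*, chr2:122147609-122147638: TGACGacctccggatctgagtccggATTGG

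This spaced pair stood in 4 of the 7 promoters of the group and in 43 of all 32851 RefSeq promoters (0.131%), searched on both strands from 250 bases before to 50 after the start. The window of *H2-T23* held ATTGG but neither TGACG nor the pair. The spacing is 20 bases in *H2-K1*, *H2-D1* and *B2m* and 19 in *H2-Q7*. TGACG and the spaced pair were added to the search after the sequences had been seen. The 220 bases before the start are given for 3 of these genes, with in capitals every match on either strand to ATTGG, to TGACG (with a following T, as TGACGT), to an interferon-stimulated element (GAAA, any 2 bases, GAAA) or to an NF-κB site (GGGGA, any base, TCCCC).
*H2-K1*, chr17:34000348-34000567, minus strand: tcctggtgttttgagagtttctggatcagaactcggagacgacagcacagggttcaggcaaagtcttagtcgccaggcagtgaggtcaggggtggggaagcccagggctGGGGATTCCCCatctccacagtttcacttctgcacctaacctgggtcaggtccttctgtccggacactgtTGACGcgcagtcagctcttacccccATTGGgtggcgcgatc
*H2-Q7*, chr17:35438935-35439154, plus strand: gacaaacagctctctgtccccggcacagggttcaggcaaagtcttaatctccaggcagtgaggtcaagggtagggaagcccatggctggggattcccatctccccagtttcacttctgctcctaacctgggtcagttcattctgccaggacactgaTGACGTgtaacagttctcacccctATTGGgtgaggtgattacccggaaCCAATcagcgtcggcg
*B2m*, chr2:122147467-122147686, plus strand: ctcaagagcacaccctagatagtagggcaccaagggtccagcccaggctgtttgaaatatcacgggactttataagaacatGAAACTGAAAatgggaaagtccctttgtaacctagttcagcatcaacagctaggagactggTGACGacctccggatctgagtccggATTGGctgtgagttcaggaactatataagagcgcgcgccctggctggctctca

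Over the stretch that could be aligned, the *H2-K1* promoter was identical to that of *H2-D1* at 144 of 160 positions (90%) and to that of *H2-Q7* at 161 of 198 (81.3%). The letters searched for the NF-κB site stood in *H2-K1* and *H2-D1* and in 16 of all promoters (0.0487%). They were not in full in the window of *H2-Q7*, which holds a stretch that differs from them at the last base only. Those of the interferon-stimulated element stood in *B2m* and *H2-T23* and in 3.44% of all promoters. Only these exact letters were searched, so a window without them, as in *H2-K1* or *H2-Q7*, may still hold another form of either site. ATTGG stood in all 7 promoters of the group and in 37.4% of all, TGACG in 5 of the 7 and in 20.8% of all, and TGACGT, which overlaps TGACG, in *H2-Q7* alone of the 7 and in 7.51% of all. The STAT site (TTC, any 3 bases, GAA) was in none of the 7 windows and in 8.3% of all promoters. These matches are descriptions of letters, not of bound sites.

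The samples held 17239774–23993674 counts per thymic and 25258341–32639570 per splenic library. Levels are given as CPM, counts relative to the library size after TMM scaling over all 18 samples. *Il2ra*, the targeted gene, had 524–682 CPM in thymic WT against 95.9–279.9 CPM in thymic CD25 KO samples. Of the latter, mice 2 and 4 had the most (279.9 and 233.9 CPM). In the spleen *Il2ra* had 488–539 CPM in WT against 168–208 CPM in CD25 KO samples. The paper reports that the remaining transcripts lacked the exon removed by Cre, illustrated for splenic Tregs, and so encoded no functional CD25. Counts per gene do not separate transcripts with and without that exon. Whether the *Il2ra* counts of thymic CD25 KO mice 2 and 4 came from such shortened transcripts was not tested. *Foxp3* was present in every sample, at 204 CPM or more, and was lower in CD25 KO Tregs of both tissues (log2 fold change -0.74 in the thymus, adjusted p = 0.00101, and -0.55 in the spleen, adjusted p = 6.90e-06). The *Rag1* of immature thymocytes was at 0 in all 8 splenic libraries, and the *Ncr1* of NK cells was at 0 in 17 of 18 libraries.

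All 9 genes were well measured. The lowest count of any of them in any library was 1776, for *Tap2*, and the highest was 84798, for *H2-K1*. Together they took 0.536–0.594% of all counts in thymic samples, 0.833–0.892% in splenic WT against 0.91–0.968% in splenic CD25 KO samples. A single noncoding gene, *Gm26917*, took 9.79–11.4% of counts in thymic WT against 5.76–9.17% in thymic CD25 KO samples, and 11.9–14.3% against 9.38–10.9% in the spleen, and its part in these shares was not tested. Per kilobase of exons, *B2m* ranked in the top percent of genes tested in WT Tregs of both tissues (percentile 99.7), and *Tap2*, the lowest, was at percentile 91.88 in the thymus and 94.97 in the spleen.

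Levels of different genes were compared per kilobase of exons. In thymic WT Tregs, *B2m* was the highest at 1307 ± 59.6 CPM per kb (SD, n = 5), followed by *H2-K1* at 525 ± 30.7 and *H2-D1* at 427 ± 25.2. *Tapbp* (119 ± 9.03 CPM per kb) and *H2-T23* (104 ± 5.37) came next, then *Nlrc5* (60.6 ± 2.76) and *Tap1* (58.4 ± 3.08), and last *H2-Q7* (31.2 ± 5.21) and *Tap2* (30.8 ± 1.88). Each of these 3 last pairs overlapped between samples, and all other neighbours in the order were apart. In splenic WT Tregs the order was the same except for *H2-Q7*, which moved from the eighth to the fourth place, at 147 ± 9.12 CPM per kb (SD, n = 4). There, no neighbours overlapped. In CD25 KO Tregs *H2-T23* and *Tapbp* of the thymus overlapped, as did *Nlrc5* and *Tap1* in both tissues, whereas *H2-Q7* and *Tap2* of the thymus no longer did.

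**Figure D1:**
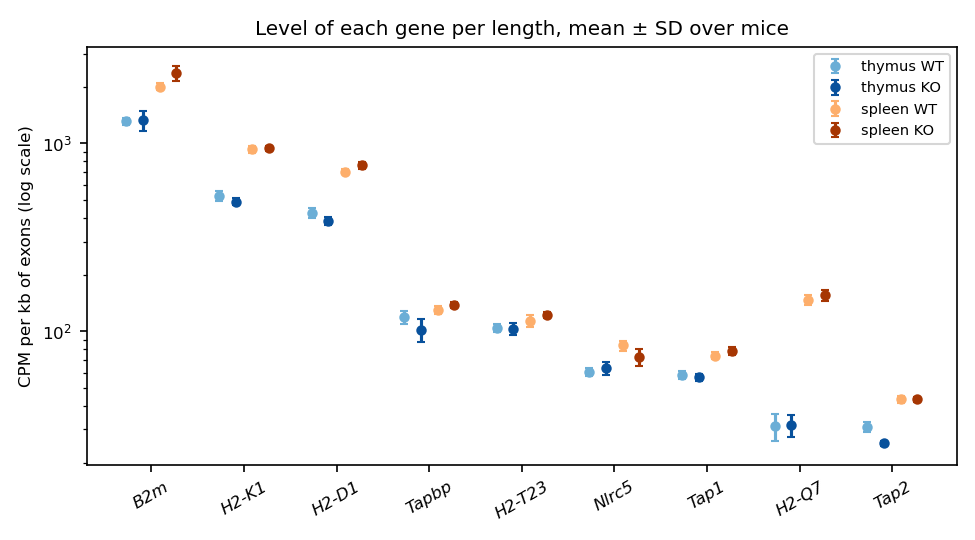
Level of each gene in CPM per kilobase of exons (log scale) in the 4 groups, as mean ± SD over 5 thymic or 4 splenic mice. *H2-Q7* stands at 31.2 CPM per kb in thymic WT and 147 in splenic WT Tregs, while the other 8 genes keep their order between the WT groups.

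The first question was whether thymic Tregs that lack CD25 express less or more of this pathway. In thymic Tregs 1 of the 9 genes, *Tap2*, differed between CD25 KO and WT at FDR < 0.01 and was lower. Among all 16986 genes tested in the thymus, 6.16% were called, 3.17% higher and 2.99% lower, so 1 of 9 is near the background. The median log2 fold change of the 9 genes was -0.02, against -0.0022 over all genes tested. With the quasi-likelihood test of edgeR, 3 of the 9 genes had an unadjusted p under 0.05, namely *Tap2*, *H2-D1* and *Tapbp*, all lower in CD25 KO Tregs, against 37.9% of all genes tested, in either direction.

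*Tap2*, the TAP subunit that pairs with TAP1 to form the peptide pump, had 109, 128.3, 115, 114 and 116 CPM in the WT mice and 100.2, 92.0, 96.7, 95.7 and 95.2 CPM in the CD25 KO mice. The groups did not overlap, and the highest CD25 KO value was close under the lowest WT value. The log2 fold change was -0.26 (SE 0.0481, adjusted p = 0.00452), which is 0.833 of the WT level (95% interval 0.775–0.896). *Tap1*, its partner, had 298–344 CPM in WT against 302–336 CPM in CD25 KO mice, with a log2 fold change of -0.02 (95% interval -0.13 to 0.09, adjusted p = 0.791). The ratio of *Tap1* to *Tap2* CPM was 2.62–2.92 in thymic WT against 3.13–3.36 in thymic CD25 KO mice. In the spleen it was 2.40–2.53 in WT against 2.58–2.69 in CD25 KO mice. The genotypes did not overlap in either tissue, and how often ratios of other genes do so was not tested.

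The *Tap2* call lay close to the threshold. It was lost with upper-quartile normalization (adjusted p = 0.0107), without CD25 KO mice 2 and 4 (adjusted p = 0.0143), and without any 1 of WT mouse 2, 3 or 5 (adjusted p = 0.0133, 0.0127 and 0.0149) or CD25 KO mouse 1, 2 or 3 (adjusted p = 0.0107, 0.0106 and 0.0135), with log2 fold changes from -0.27 to -0.23. In these thymic libraries fold changes also followed the GC content of the gene, and removing that trend left *Tap2* (57.9% GC) at -0.13 (adjusted p = 0.0678). Antisense or other genes overlap 14.1% (*Gm15821*) and 4.36% (*Gm20496*) of its exonic length, and whether reads were counted by strand is not given in the sources used here.

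The classical heavy chains differed less. *H2-K1* had 1515, 1703, 1508, 1502 and 1487 CPM in thymic WT against 1442, 1423, 1378, 1415 and 1532 CPM in thymic CD25 KO mice. The groups overlapped through CD25 KO mouse 5, and the log2 fold change was -0.09 (95% interval -0.20 to 0.03, adjusted p = 0.279). *H2-D1* had 1082, 1216, 1072, 1056 and 1080 CPM in WT against 1054, 1002, 972, 1029 and 930 CPM in CD25 KO mice. Here the groups did not overlap, the lowest WT mouse lying just above the highest CD25 KO mouse, and the log2 fold change of -0.13 (95% interval -0.25 to -0.01) had an adjusted p of 0.114. Of the 9 genes, 2 had groups that did not overlap, *Tap2* and *H2-D1*, as did 16.4% of all genes tested.

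*B2m*, the light chain without which class I is not stable at the surface, had 1162, 1194, 1093, 1090 and 1079 CPM in thymic WT against 1122, 1087, 1071, 1051 and 1386 CPM in thymic CD25 KO mice. Only CD25 KO mouse 5 stood above the WT range, and the log2 fold change was 0.04 (95% interval -0.13 to 0.21, adjusted p = 0.728). With the GC trend removed it was -0.24 (adjusted p = 0.0487), so the direction for *B2m*, which has a low GC content of 41.2%, turned with that correction. *Tapbp*, whose product bridges TAP and the empty heavy chain, had 391–463 CPM in WT against 281–402 CPM in CD25 KO mice, the lowest again in mouse 5, with a log2 fold change of -0.20 (95% interval -0.40 to -0.00059, adjusted p = 0.131).

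*Nlrc5*, the class I transactivator, had 490–544 CPM in thymic WT against 476–592 CPM in thymic CD25 KO mice (log2 fold change 0.09, 95% interval -0.05 to 0.22, adjusted p = 0.314). *H2-T23*, the heavy chain seen by CD94/NKG2A receptors, had 287–326 CPM in WT against 278–326 CPM in CD25 KO mice (0.0021, 95% interval -0.12 to 0.12, adjusted p = 0.982). *H2-Q7* had 112–165 CPM in WT against 118–159 CPM in CD25 KO mice (0.03, 95% interval -0.22 to 0.28, adjusted p = 0.876), and it varied most between mice, with a coefficient of variation of 16.7% in WT against 4.55–7.62% for the other 8 genes.

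In the thymus the summed level of 11 B cell and antigen-presenting cell genes was 44.0–108 CPM in WT against 39.6–72.8 CPM in CD25 KO mice, with none of 9 tested genes called. The 8 genes of immature thymocytes summed to 76.5–213 (WT) and 91.2–147 CPM (CD25 KO), with none of 7 called. Of 4 genes of newly made single-positive thymocytes *Tox* was higher, without overlap (log2 fold change 0.38, adjusted p = 0.00577), and their sum was 488–599 (WT) and 559–757 CPM (CD25 KO). The *Tox* call was lost without 1 mouse in 5 of 10 fits and with the thymic mouse number as a block (adjusted p = 0.0163). In splenic CD25 KO Tregs *Tox* was called higher as well (0.31, adjusted p = 0.00084). Of 6 genes of mature thymocytes and naive T cells *Klf2* was called lower (log2 fold change -0.53). Of these 6, 5 had a log2 fold change below 0 and 1 had one above 0. Of 6 Treg and T cell genes *Foxp3*, *Il2ra* and *Cd3e* (-0.43) were called lower and none was called higher. *Ikzf2* alone of these 6 had a log2 fold change above 0 (0.44) and was not called. The part of all these genes in the *Tap2* value was not tested.

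**Figure D2:**
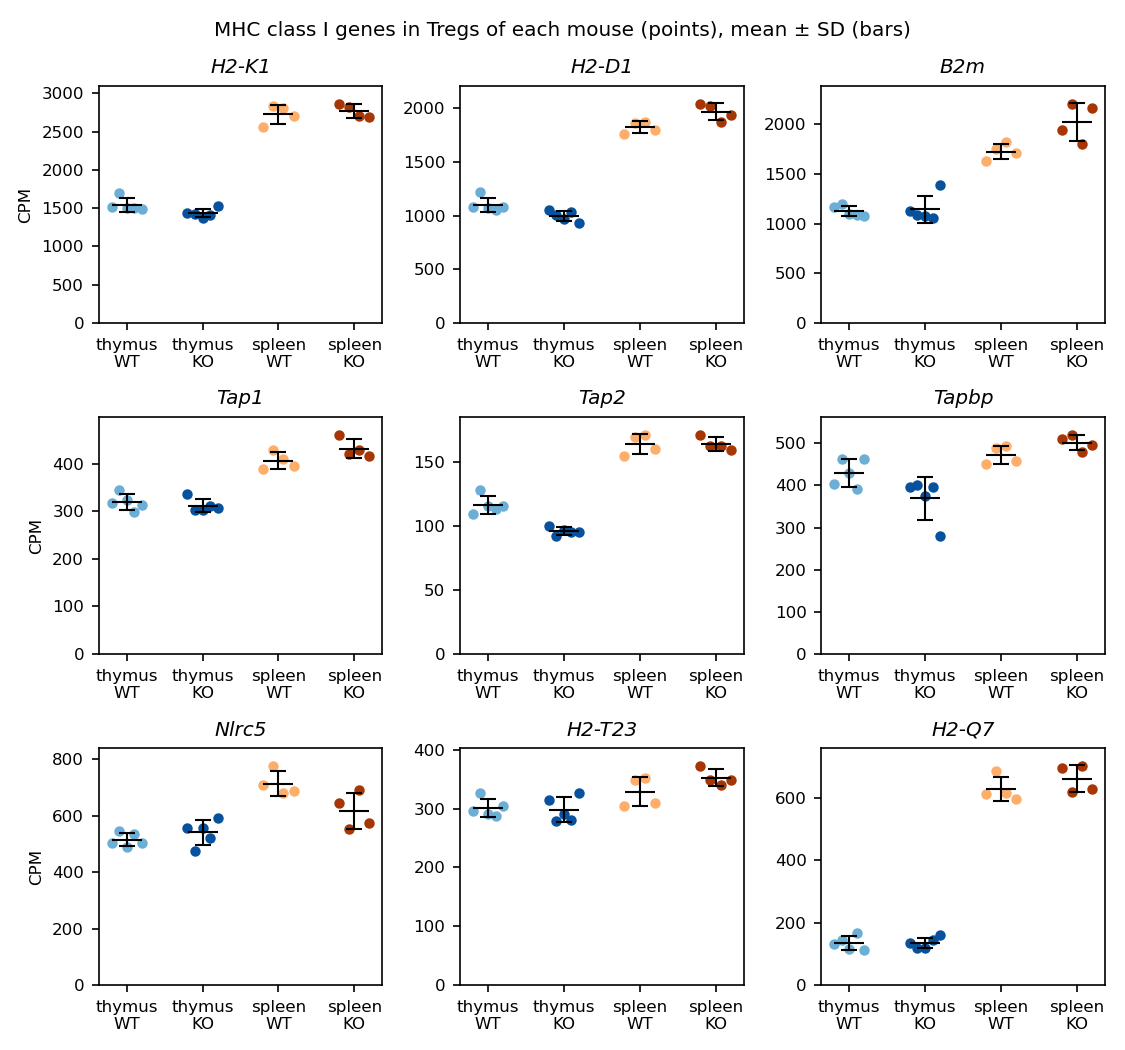
CPM of each of the 9 genes in every mouse (points) of the 4 groups, with mean ± SD (black bars), each panel starting at 0. Thymic *Tap2* is the panel in which CD25 KO lies below WT at FDR < 0.01, and for 7 of 9 genes every splenic WT mouse lies above every thymic WT mouse.

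The same question was asked in splenic Tregs after CD25 was deleted in the adult. None of the 9 genes was called at FDR < 0.01 by edgeR, among 17463 genes of which 9.45% were called (5.9% higher and 3.55% lower). At an unadjusted p under 0.05 there were 2, *B2m*, which was higher, and *Nlrc5*, which was lower, against 29.9% of all genes. Both passed FDR < 0.05, as did 17.2% of all genes. DESeq2 called *B2m* at FDR < 0.01 (adjusted p = 0.0069), among 12.3% of all genes. In the thymus the corresponding calls were again of *Tap2* alone, among 23.3% of genes at FDR < 0.05 and 16.3% by DESeq2.

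*B2m* had 1627, 1745, 1816 and 1706 CPM in splenic WT against 1941, 2207, 1796 and 2158 CPM in splenic CD25 KO mice. CD25 KO mouse 3 lay within the WT range and the other 3 above it. The log2 fold change was 0.23 (SE 0.0679, adjusted p = 0.0258), or 1.18-fold (95% interval 1.06–1.30). Without CD25 KO mouse 3 it was 0.29 and was called (adjusted p = 0.00474). Over the fits without 1 mouse the adjusted p reached 0.0836. Over the 8 alternatives with all mice the log2 fold change ran from 0.17 to 0.23, and the adjusted p (edgeR or DESeq2) from 0.00285 to 0.0895.

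*Nlrc5* had 709, 777, 681 and 686 CPM in splenic WT against 644, 554, 691 and 575 CPM in splenic CD25 KO mice. The same CD25 KO mouse 3 lay in the WT range and the other 3 below it. The log2 fold change was -0.21 (SE 0.0696, adjusted p = 0.0487), or 0.864 of WT (95% interval 0.780–0.958). Without CD25 KO mouse 3 it was -0.27 (adjusted p = 0.0115), while over the fits without 1 mouse the adjusted p reached 0.17. Over the 8 alternatives with all mice the log2 fold change ran from -0.24 to -0.18, and the adjusted p (edgeR or DESeq2) from 0.00691 to 0.0869. The transactivator and the light chain thus had fold changes of opposite sign, neither past FDR < 0.01.

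The heavy chains were within 1.1-fold of WT in the spleen. *H2-K1* had 2556–2829 CPM in WT against 2685–2867 CPM in CD25 KO mice (log2 fold change 0.02, 95% interval -0.10 to 0.14, adjusted p = 0.822). *H2-D1* had 1757–1873 CPM in WT against 1869–2043 CPM in CD25 KO mice (0.11, 95% interval -0.0017 to 0.23, adjusted p = 0.174). *H2-Q7* (0.08, adjusted p = 0.427) and *H2-T23* (0.10, adjusted p = 0.246) were likewise not called. *Tap2*, lower in thymic CD25 KO Tregs, had 154–171 CPM in splenic WT against 159–172 CPM in splenic CD25 KO mice (0.0019, 95% interval -0.10 to 0.11, adjusted p = 0.986), and *Tap1* (0.09, adjusted p = 0.269) and *Tapbp* (0.09, adjusted p = 0.278) also overlapped.

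Of the 9, 8 splenic fold changes were above 0 and the median was 0.09, against -0.0065 over all genes tested. With both tissues together, the 18 fold changes ran from 0.833 to 1.18, and their 95% intervals, not adjusted for the number of genes, from 0.757 to 1.30. In bulk RNA, fewer cells with a transcript and less of it per cell cannot be told apart.

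Markers of other cells moved with genotype in the spleen. The summed level of 11 B cell and antigen-presenting cell genes was 77.5–98.2 CPM in WT against 109–117 CPM in CD25 KO mice, with 2 of 8 tested genes called higher (*Cd74*, log2 fold change 0.40, and *Lyz2*, 1.03). The sum of 5 NK and CD8 T cell genes was 12.7–17.5 CPM in WT against 19.3–26.3 CPM in CD25 KO mice, with *Klrb1c* called higher (1.90) and *Ncr1* at 0. Of 6 genes of mature thymocytes and naive T cells, 3 were called lower, *Ccr7* and *Ly6c1* among them. Of these 6, 5 had a log2 fold change below 0 and 1 had one above 0 (0.47). Of the 6 Treg and T cell genes, *Ikzf2* (0.37), *Cd4* (0.32) and *Cd3e* (0.24) were called higher, and *Foxp3* and *Il2ra* lower. The *Cd3e* call was lost without 1 mouse in 7 of 8 fits. That of *Klrb1c* was lost in 2 of 8 such fits and with DESeq2 (adjusted p = 0.0133). The part of all these genes in the *B2m* and *Nlrc5* values was not tested.

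The next question was whether the effect of CD25 loss differed between the tissues. No gene of the 9 was called for that difference at FDR < 0.01 in 1 edgeR fit of all 18 samples, in which 6.98% of 18686 genes were called. The splenic minus the thymic log2 fold change was 0.28 for *Tap2* (SE 0.0707, adjusted p = 0.0107) and 0.25 for *H2-D1* (SE 0.0800, adjusted p = 0.035), both of which passed FDR < 0.05, as did 16.9% of genes. With DESeq2 both were called at FDR < 0.01 (adjusted p = 0.000679 and 0.00206), among 11.7% of genes. *Tap2* was also called by edgeR without thymic WT mouse 1 (adjusted p = 0.00717) or 4 (0.00988) or splenic WT mouse 3 (0.00924). *Tapbp* (0.30, adjusted p = 0.0813) and *Nlrc5* (-0.28, adjusted p = 0.0586) had differences as large with more spread, and at an unadjusted p under 0.05 there were 4 genes, these together with *Tap2* and *H2-D1*, against 32.8% of all genes. *Nlrc5* was the 1 gene of the 9 with a difference below 0.

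**Figure D3:**
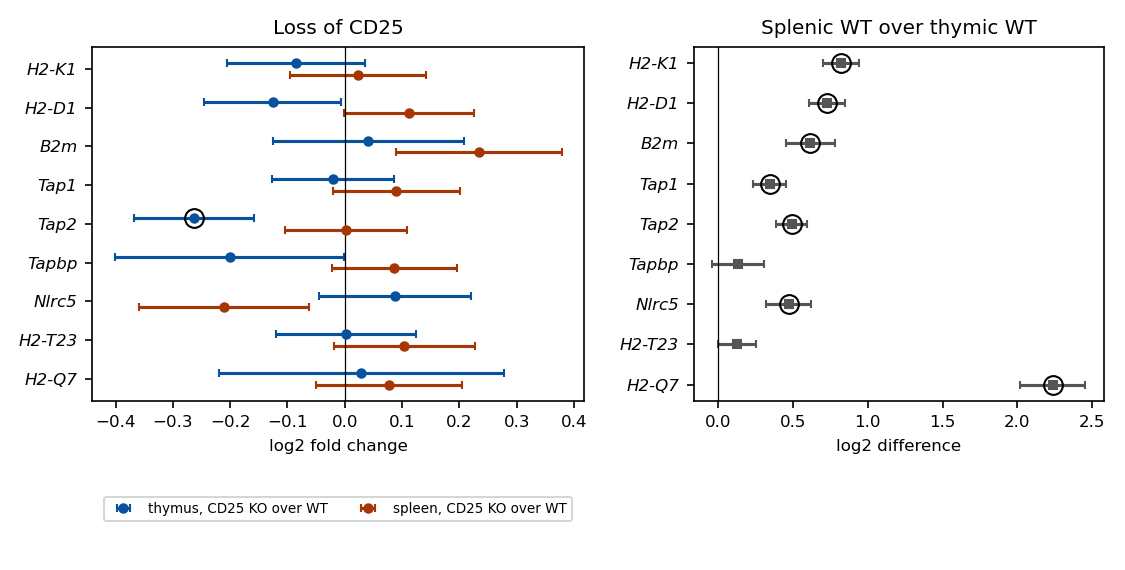
Log2 fold change of CD25 KO over WT in thymic (blue) and splenic (brown) Tregs (left) and log2 difference of splenic over thymic WT Tregs (right), with 95% intervals. Rings mark FDR < 0.01, which 1 of 9 genes passed in the thymus, none in the spleen and 7 between the WT groups.

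A far larger difference lay between the 2 groups of WT Tregs, a comparison that was added after the values had been seen. With the quasi-likelihood test of edgeR, 7 of the 9 genes were higher in splenic than in thymic WT Tregs at FDR < 0.01 and none was lower. Of all 18686 genes, 40.4% were called, 21% higher and 19.5% lower. The median log2 difference of the 9 genes was 0.49, against 0.01 over all genes. The 7 genes did not overlap between the groups, as was so for 46% of all genes, and they stayed called under all 8 alternatives and without any 1 WT mouse. Tissue, header date, mouse model, tamoxifen and age cannot be told apart here. Immature thymocyte genes summed to 76.5–213 CPM in thymic WT against 43.1–52.0 CPM in splenic WT Tregs, with 7 of 8 called lower, and B cell and antigen-presenting cell genes to 44.0–108 against 77.5–98.2 CPM, and their part in the difference was not tested.

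*H2-Q7* differed most. It had 131, 144, 114, 165 and 112 CPM in thymic WT against 611, 684, 616 and 597 CPM in splenic WT mice, a 4.70-fold difference (95% interval 4.05–5.47, log2 2.23, SE 0.104, adjusted p = 4.96e-13). It shares 17% of its 75-base stretches with other genes, chiefly *H2-Q10*, *H2-Q5* and *H2-Q6*, so its count may be split or lost among near copies. The classical heavy chains were 1.77-fold (*H2-K1*, 95% interval 1.63–1.92) and 1.66-fold (*H2-D1*, 1.53–1.80) higher, and *B2m* was 1.53-fold higher (1.37–1.72).

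The transporter and the transactivator differed less. *Tap2* was 1.41-fold (95% interval 1.31–1.51), *Nlrc5* 1.39-fold (1.25–1.54) and *Tap1* 1.27-fold (1.18–1.37) higher in splenic WT Tregs. *Tapbp* (1.10-fold, 0.974–1.24, adjusted p = 0.181) and *H2-T23* (1.09-fold, 1.00–1.19, adjusted p = 0.0876) were not called. The 4 heavy chain genes thus ranged from 1.09- to 4.70-fold, the loading genes and *Nlrc5* from 1.10- to 1.41-fold.

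Over the 18 samples, the gene whose log2 CPM followed that of *H2-K1* most closely, after centring, was *H2-D1*, with a root mean square difference of 0.0655 among 12909 genes ranked. *Ppp1r9b* (0.0724) and *Rinl* (0.09) came next. The SD of *H2-K1* itself was 0.445 on this scale, most of it between the tissues, which also differed in header date, mouse model, tamoxifen and age. The genes most like *Nlrc5* (SD 0.203) were *Slc28a2* (0.0595), *Rnf123* (0.077) and *Numb* (0.078). Those most like *H2-Q7* (SD 1.14) were farther from it, *Peg13* (0.155), *Gbp3* (0.234) and *Hrh2* (0.24). *H2-K1* shares 3.1% and *H2-D1* 5.4% of their 75-base stretches with other genes.

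Other genes of the pathway were read from lists. Among 13 further class I-like genes, 9 were tested in the thymus, of which *H2-Q4* was higher (log2 fold change 0.23, adjusted p = 0.00983, lost without any 1 of the 10 mice) and *H2-Q6* lower. *H2-Q6*, which lies in the same gene cluster as *H2-Q7*, had 49.6, 50.9, 37.8, 63.6 and 35.4 CPM in thymic WT against 16.9, 19.6, 13.6, 25.1 and 19.4 CPM in thymic CD25 KO mice. All CD25 KO mice lay below all WT mice, with a log2 fold change of -1.31 (SE 0.180, adjusted p = 0.00131), while *H2-Q7* had 0.03. In splenic Tregs *H2-Q6* had 502–555 CPM in WT against 473–544 CPM in CD25 KO mice and was not called, and the difference between the tissues was called (1.27, adjusted p = 0.000332). It shares 17.9% of its stretches with near copies, first of all *H2-Q7*. In the spleen 10 of the 13 were tested and *H2-Q2* was higher (0.80, adjusted p = 0.00193), at 2.72–4.34 CPM in WT against 5.35–6.02 CPM in CD25 KO mice.

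Of 6 genes of peptide loading and trimming, 2 were lower in thymic and 2 higher in splenic CD25 KO Tregs. *Calr*, the calreticulin that holds the empty heavy chain, and *Pdia3*, its partner oxidoreductase, were lower in thymic CD25 KO Tregs (log2 fold changes -0.35 and -0.28, adjusted p = 0.00534 and 0.0083). In splenic CD25 KO Tregs *Calr* and the endoplasmic reticulum chaperone *Hspa5* were higher (0.25 and 0.28, adjusted p = 0.00408 and 0.00268). The difference was called for *Calr* (0.62, adjusted p = 0.000166), *Pdia3* (0.52, adjusted p = 0.00135) and *Hspa5* (0.45, adjusted p = 0.00473). All of these also help to fold proteins other than class I. Leaving out 1 of the 10 thymic mice lost the call of *Calr* in 6 and of *Pdia3* in 8 of the 10 fits (adjusted p up to 0.0189 and 0.0311), and leaving out 1 of the 8 splenic mice lost *Calr* in 4 and *Hspa5* in 2 of the 8.

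The immunoproteasome, which replaces catalytic subunits to favour class I peptides, had none of 5 genes called in either tissue, with median log2 fold changes of -0.08 in the thymus, where 2 had an unadjusted p under 0.05, and 0.02 in the spleen, where none had. These lists were not counted with DESeq2. Of the 3 catalytic subunits of the constitutive proteasome, *Psmb5* was lower in thymic CD25 KO Tregs (-0.35, adjusted p = 0.00439), a call lost with the GC trend removed (adjusted p = 0.0268) and without 1 mouse in 6 of 10 fits. None was called in the spleen, where 1 of the 3 had an unadjusted p under 0.05. Between the WT groups all 5 immunoproteasome genes were higher in the spleen (median 0.54), as were 5 of the 6 loading genes (0.31), whereas 1 of 3 constitutive subunits, *Psmb7*, was lower.

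**Figure D4:**
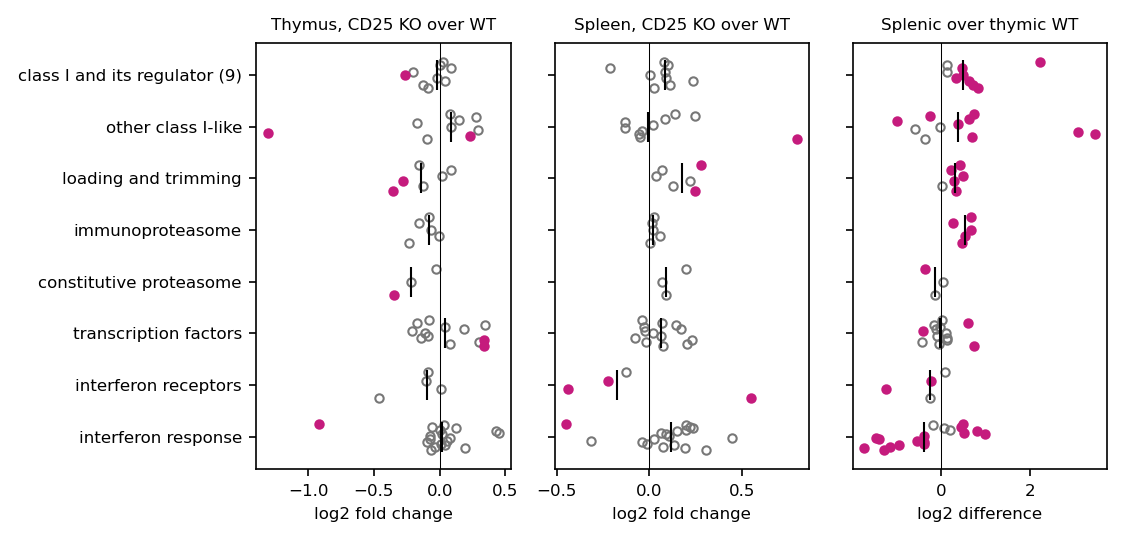
Log2 fold change of every tested gene of the 9 and of 7 further lists of the pathway for CD25 KO over WT in thymus and spleen and for splenic over thymic WT Tregs. Filled points passed FDR < 0.01, open points did not, and the vertical tick is the median of the list, for the immunoproteasome 0.54 in the last panel.

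Of 13 transcription factors that act on class I promoters, *Irf1* (log2 fold change 0.34, adjusted p = 0.00811), which carries interferon signals, was among those higher in thymic CD25 KO Tregs, and none was lower. *Irf1* had 184–241 CPM in WT against 242–297 CPM in CD25 KO mice, without overlap. Without 1 mouse the call of *Irf1* was lost in 9 of 10 fits (adjusted p up to 0.0217). In the spleen none of the 13 was called by edgeR, and 4 had an unadjusted p under 0.05. *Irf1* was not called for the difference between the tissues (adjusted p = 0.0987). The subunits of RFX and NF-Y and *Creb1*, with which NLRC5 works, were not called in either tissue, *Nfya* coming closest in the thymus (-0.21, adjusted p = 0.0104).

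Interferon receptor genes changed in the spleen, where *Ifngr1* was higher (0.55, adjusted p = 0.000237) and *Ifngr2* (-0.44, adjusted p = 0.00067) and *Ifnar1* (-0.22, adjusted p = 0.00485) were lower in CD25 KO Tregs. The *Ifnar1* call was lost without 1 mouse in 5 of 8 fits. None of the 4 receptor genes was called in the thymus, where *Ifngr1* had an unadjusted p under 0.05 (-0.46, adjusted p = 0.0226), and the difference between the tissues was called for *Ifngr1* (1.03, adjusted p = 0.000445) and *Ifngr2* (-0.43, adjusted p = 0.00901). Of 18 interferon response genes 1 was called in each tissue, *Socs1*, an inhibitor of JAK kinases that IL-2 also induces, which was lower in both (thymus -0.92, adjusted p = 1.28e-05, spleen -0.45, adjusted p = 0.000173). In the spleen 14 of the 18 had a log2 fold change above 0 and 4 below 0 (median 0.12). There 9 had an unadjusted p under 0.05 in the edgeR test, against 29.9% of all genes. In the thymus 11 were above 0 and 7 below 0 (median 0.015), and 3 had such a p, against 37.9% of all genes. Between the WT groups 10 of these 18 genes were lower in the spleen and 5 higher. The 10 lower genes, among them *Ifit1* (-1.73) and *Rsad2* (-1.47), had the opposite sign to the class I genes, and the 5 higher were *Gbp2* (0.99), *Gbp4*, *Gbp7*, *Irgm2* and *Socs1*. *Irf1* itself was higher in splenic WT Tregs (0.74, adjusted p = 3.83e-08).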

How the data were processed

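Paired-end reads were aligned by the authors to GRCm38 with STAR (2.5.0b in the submitters' processing notes) and counted on genes of GENCODE M13 with featureCounts 1.5.0. The deposited values are raw counts for 50600 genes, without normalization, and all 18 columns were used. Symbols, coordinates, exonic length and GC content came from GENCODE M21. In R 4.3.3, the genotypes were compared, separately per tissue, with the quasi-likelihood test of edgeR 4.0.16, after filterByExpr and TMM scaling, with Benjamini-Hochberg adjustment over all genes tested and FDR < 0.01. Standard errors were derived from the fold change and F statistic, and intervals are 95% intervals. The difference between tissues and the comparison of WT groups used 1 fit of all 18 samples. CPM shown are scaled over all samples, whereas tests within a tissue are scaled within it. The smallest detectable level, 3 counts, was at most 0.163 CPM, which covers counting error only. Alternatives were RLE and upper-quartile scaling, 2 other filters, DESeq2 1.42.0, FDR < 0.05, removal of each library's GC trend (lowess span 0.3), 1 fit of all samples, the thymic mouse number as a block, and leaving out mice. The procedure was run on simulated counts with planted changes larger than any genotype fold change of the 9 genes. Changes as small as theirs were not simulated. Named genes are the 9 genes, list genes called in either tissue (at most 4 per direction, list and tissue by fold change), markers at 0, and the 3 nearest genes of *Nlrc5*, *H2-K1* and *H2-Q7* among genes with a mean log2 CPM of at least 1. List genes named only for the comparison of WT groups, *Psmb7* included, and *Gm26917* were chosen after their values were seen. The genes, lists and tests were chosen with earlier results of these data known. Each sample is 1 mouse. Values of some list genes are not reported here.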

Additional observations from a re-analysis of the deposited data

Results flagged for a closer look

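In 5 of the 36 sets of samples (9 genes in 4 groups) the highest or lowest mouse stood apart from the others by more than Dixon's 95% critical value, which chance alone would give in about 1 in 20 sets. All 5 were thymic. In WT mouse 2, *H2-K1* (1703 CPM) and *H2-D1* (1216 CPM) were both the highest of the group. In CD25 KO mouse 5, *B2m* (1386 CPM) was the highest and *Tapbp* (281 CPM) the lowest. In CD25 KO mouse 1, *Tap1* (336 CPM) was the highest. Without CD25 KO mouse 5, 8 of the 9 thymic fold changes were below 0, against 5 of 9 with it.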

How the results depend on the processing

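Of the 9 genes, 1 was called in the thymus, and the count was 0 with upper-quartile normalization, the GC trend removed, the replicate block, both of these, or without CD25 KO mice 2 and 4, and 0 to 1 over the fits without 1 mouse. The replicate block left *Tap2* at -0.26 (adjusted p = 0.0312). *Calr*, *Pdia3*, *Psmb5*, *H2-Q4*, *Irf1* and *Tox* were lost with the block too, and over all genes it gave 209 calls against 1047. Thymic mice share numbers in the labels, which do not say whether same-numbered mice are paired. Same-numbered deviations correlated at -0.238 to 0.144 over 16986 genes, and 1 of 5 WT mice matched its own number best. With 5 mice per group these correlations cannot decide it. Over all genes DESeq2 gave 2763 thymic calls, 1 fit of all samples 2881, the fits without 1 mouse 371–1087 and without CD25 KO mice 2 and 4 2008. In the spleen the count of 0 became 2 without a filter (*B2m*, adjusted p = 0.00285, and *Nlrc5*, 0.00691) and at FDR < 0.05, 1 with DESeq2, and 0 to 1 without 1 mouse. For the difference between tissues it became 1 with RLE normalization, with 10 counts in every sample and with the GC trend removed (*Tap2* each time), 2 with DESeq2 or at FDR < 0.05, and 0 to 1 without 1 mouse. The cause was not tested. Between the WT groups it stayed at 7.

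Fold changes that turned were all near 0 in the report, apart from thymic *B2m* with the GC trend removed (-0.24, and -0.23 with the block as well). With the GC trend removed thymic *H2-K1* was 0.036 (0.033 with the block) and *Tap1* 0.10 (0.10), with upper-quartile normalization thymic *Tap1* was 0.016, splenic *H2-K1* -0.0066, splenic *Tap2* -0.028 and the difference of *H2-Q7* -0.012, without a filter splenic *Tap2* was -0.0013, and in the fit of all 18 samples thymic *H2-T23* was -0.014. Without 1 mouse, ranges that crossed 0 were -0.037 to 0.068 for thymic *B2m*, -0.043 to 0.0072 for *Tap1*, -0.033 to 0.033 for *H2-T23* and -0.037 to 0.12 for *H2-Q7*, -0.011 to 0.042 for splenic *H2-K1*, -0.031 to 0.022 for splenic *Tap2* and -0.035 to 0.13 for the difference of *H2-Q7*. Depth did not limit the 9 genes, whose lowest count was 1776.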
